A study of Homo sapiens with 9 samples.

Results

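The changes that arose between 12 h and 48 h of AML1-ETO induction were read from 2 of the 9 RNA-seq libraries of the study. AML1-ETO is the fusion protein of the t(8;21) translocation, in which the DNA-binding Runt domain of AML1 (encoded by RUNX1) is joined to nearly all of the corepressor ETO (encoded by RUNX1T1). The cells are U937, a human monocytic leukaemia line, and the AML1-ETO library pair came from clone #4, a line of cells grown from a single cell after retroviral transfer of an N-terminally HA-tagged AML1-ETO cDNA in a doxycycline-inducible, puromycin-resistant vector. This clone (genotype label "AE over-expressed") was sampled at 0, 12 and 48 h of 5 μg/ml doxycycline. The line with the empty vector (genotype label "WT") received the same doxycycline at the same times, so both lines share the vector, the selection and the drug. Each of the 3 lines, the third of which carries ETO2-GLIS2 in clone #14, gave 1 library per time, and a difference between 2 libraries therefore has no replicate check and no p-value. The question asked of this pair is which transcripts differ at 48 h that did not differ in the same way at 12 h.

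For each of 60623 Ensembl genes the files give FPKM, the reads on a gene per kilobase of its exons and scaled to the reads of its library. A gene entered the comparison when its mean FPKM over the 12 h and 48 h libraries was at least 1, which 12372 genes did, and its change was log2 of (48 h + 0.1) over (12 h + 0.1) FPKM. "Rose" and "fell" are used below only for changes past 2-fold on this scale. Where the reads behind the values could be recovered, a 95% exact (Clopper-Pearson) interval of the ratio of reads, without the 0.1, is given as log2. These intervals cover counting error only, since PCR copies of a molecule could not be told apart from separate molecules. The empty vector line, with 11974 genes by its own filter, is given as the background of time in culture with doxycycline.

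AML1-ETO silences or activates genes whose regulatory regions it binds, through the Runt domain and through the corepressors that the ETO part carries. Genes that follow its appearance within hours can be told from later ones only by time, since a protein that is itself induced may in turn change other genes. Blood cells of the monocytic and granulocytic lines hold azurophil granules filled with proteases and antimicrobial proteins, and their levels depend on the transcription factors PU.1 (SPI1) and C/EBPα (CEBPA). Interferon-stimulated genes are the antiviral genes that interferon signalling turns on by way of the interferon-stimulated response element, whose core reads GAAANNGAA.

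The construct was present in both libraries. RUNX1T1 stood at 0.512 (115 reads), 22.2 and 28.7 FPKM in the AML1-ETO line at 0, 12 and 48 h. In the empty vector line it stood at 0, 0 and 0.0240 FPKM, and in the ETO2-GLIS2 line at 0 FPKM at each time. Whether the 0 h value came from the construct was not tested. The paper proposes that its lines likely leaked some fusion protein without doxycycline, so the 0 h library may not be free of it. Between 12 h and 48 h the log2 change of RUNX1T1 was 0.37 (0.32 to 0.43). RUNX1 stood at 17.4, 17.8 and 16.8 FPKM. The level of the construct transcript was thus within 2-fold across the step described here, after a log2 change of 5.18 in the step before. The implied reads on genes were 15434250 at 12 h and 15216874 at 48 h of AML1-ETO, within the range of 15136401 to 18443642 over the 9 libraries.

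Of the 12372 genes, 1045 (8.45%) rose and 1222 (9.88%) fell from 12 h to 48 h with AML1-ETO. With the empty vector, 241 of 11974 genes (2.01%) rose and 313 (2.61%) fell. The median change was 0.02 with AML1-ETO and 0.00 with the empty vector on the log2 scale, so the difference lay in the spread, with an SD over genes of 1.03 against 0.62. A share of 61.1% of genes stayed within 1.5-fold with AML1-ETO and 86.3% with the empty vector. Past 4-fold, 302 genes rose and 304 fell with AML1-ETO against 63 and 91 with the empty vector. The ETO2-GLIS2 line, at the same step, had 628 rises and 237 falls among 11876 genes, and no test of that line against AML1-ETO was possible.

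**Figure D1:**
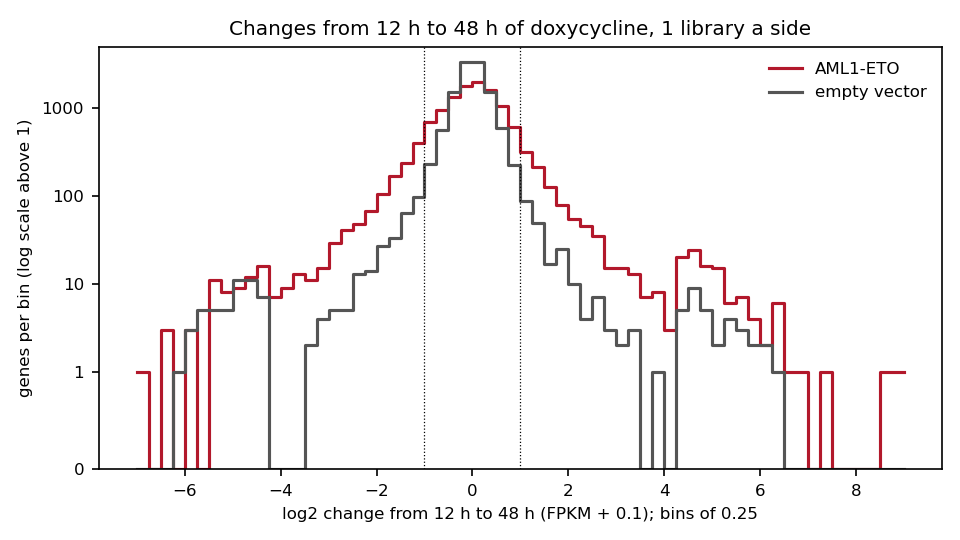
Number of genes (y axis, log scale above 1) by their log2 change from 12 h to 48 h (x axis, FPKM + 0.1, bins of 0.25) in the AML1-ETO line (red, 12372 genes) and the empty vector line (grey, 11974 genes), 1 library a side, with dotted lines at 2-fold. The red curve is wider on both sides and reaches 8.76 on the right.

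Most of the genes called in this window had been within 2-fold in the step before it. Such genes are called level below, although SPI1, at -0.80, and MS4A3, at -0.93 on the log2 scale from 0 h to 12 h, are among them. The share of all tested genes within 2-fold in that step is not given, so whether this majority is particular to the called genes was not tested. Of the 1045 rises, 797 (6.44% of the genes tested) had been within 2-fold from 0 h to 12 h, 170 had already risen and 78 had fallen. Among the 1222 falls, 1003 (8.11% of the genes tested) had been within 2-fold, 59 had already fallen and 160 had risen. The 12 h library stands in both steps, so an error in it would move the steps in opposite directions, and these counts are a description. Of the rises, 95 also passed 2-fold upwards with the empty vector and 90 passed it downwards. For the falls these counts were 84 downwards and 49 upwards.

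The share of genes called depended on their level. Among genes with a mean of 1 to 5 FPKM, 13.4% rose and 12.9% fell, while from 10 to 50 FPKM the shares were 4.79% and 7.09%. At 50 FPKM or more, 41 of 763 genes (5.37%) rose and 77 (10.1%) fell. Protein-coding genes made up 80.6% of the genes tested that have an annotated type, 53.0% of the rises and 75.4% of the falls. Long noncoding RNA genes were 9.22%, 20.3% and 11.1%. Since the filter uses the same libraries as the comparison, 81 genes listed at 0 at 12 h and 34 listed at 0 at 48 h had to change by at least 4.39 to enter it. With a filter on the 0 h library in its place, 638 of 11388 genes (5.60%) rose and 1278 (11.2%) fell. The counting interval lay wholly past 2-fold for 474 of the 1012 rises and for 688 of the 1184 falls that have one.

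Of the 33 gene lists, interferon-stimulated genes had the highest median change. All 31 list members found in the files had a higher value at 48 h than at 12 h, and each of the 27 that passed the filter rose, against 8.45% of all genes tested, with a median log2 change of 4.42. Their empty vector median was 0.35, with IFIT1, IFIT2 and ISG15 past 2-fold upwards, and their median from 0 h to 12 h with AML1-ETO was 0.12. Since 13 of the 27 entered the filter without reaching 1 FPKM at 0 h, the same list was read over the 14 members that had 1 FPKM at 0 h, and all 14 rose, with a median of 4.41. From 12 h to 48 h, the summed level of the list went from 273 to 4428 FPKM with AML1-ETO and from 212 to 279 FPKM with the empty vector. These genes were chosen with earlier results of these data known, and the count is therefore a description.

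The promoters of 5 members are shown as examples of the response element. They were chosen among those that hold it and are not the 5 with the largest changes. The sequences are the 160 bases before the RefSeq transcript start on GRCh38.p14, written 5′ to 3′ on the strand of the gene, and capitals mark GAAANNGAA or its reverse complement.
IFIT1 (chr10:89392463-89392622, forward strand): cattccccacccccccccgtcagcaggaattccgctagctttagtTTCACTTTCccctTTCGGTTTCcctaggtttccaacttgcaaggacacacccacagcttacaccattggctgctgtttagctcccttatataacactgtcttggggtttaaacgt
IFIT3 (chr10:89327837-89327996, forward strand): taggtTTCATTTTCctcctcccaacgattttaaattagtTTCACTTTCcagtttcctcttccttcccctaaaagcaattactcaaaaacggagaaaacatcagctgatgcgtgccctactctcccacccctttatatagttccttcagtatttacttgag
IFI44 (chr1:78649629-78649788, forward strand): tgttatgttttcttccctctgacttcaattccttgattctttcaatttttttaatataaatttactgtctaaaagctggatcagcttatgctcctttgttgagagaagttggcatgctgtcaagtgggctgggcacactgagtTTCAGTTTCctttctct
IFI6 (chr1:27672193-27672352, reverse strand): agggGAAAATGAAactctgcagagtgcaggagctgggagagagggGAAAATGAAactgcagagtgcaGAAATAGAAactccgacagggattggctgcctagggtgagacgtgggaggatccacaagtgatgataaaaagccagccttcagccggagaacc
OAS3 (chr12:112938314-112938473, forward strand): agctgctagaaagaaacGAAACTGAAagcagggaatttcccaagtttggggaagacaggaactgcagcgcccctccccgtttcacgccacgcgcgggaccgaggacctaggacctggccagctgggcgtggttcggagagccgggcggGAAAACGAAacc

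IFIT1 and IFIT3 hold 2 matches each in the reverse orientation, IFI44 holds 1 near its start, OAS3 holds 2 and IFI6 holds 3. Over the window from 250 bases before to 50 bases after the start, 14 of the 19 interferon-stimulated genes with a promoter in the RefSeq table (73.7%) held the core on either strand. Over all 8272 tested genes with a promoter the share was 6.62%, over the 444 such genes that rose it was 14.6%, and over the 739 that fell it was 4.06%. This motif was chosen after the rise of the list had been seen. The 5 list members without it were IFI35, IRF9, OAS1, SAMD9L and STAT2, which also rose. The Runt motif (TGTGGT or TGCGGT) was in 17.1% of the promoters of rising genes and 21.8% of those of falling genes, against 18.2% of all. For the PU.1 core GAGGAA the shares were 26.8%, 27.6% and 27.4%, and for the E-box CAGCTG they were 18.9%, 21.4% and 16.5%. A match is a run of letters and not a measured binding site.

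IFIT1, whose product binds viral RNA, had 0.144, 0.0702 and 73.5 FPKM at 0, 12 and 48 h, and 0.229 and 0.774 FPKM at 12 h and 48 h of the empty vector. Its gene (ENSG00000185745) lies on chromosome 10 from 89392623 to 89406487. The 5 reads at 12 h stood against 5159 at 48 h, a log2 ratio of 8.81 to 11.65, and the change on the scale with 0.1 FPKM added was 8.76. IFI44 (ENSG00000137965, chromosome 1, 78649789 to 78664078) had 0 reads at 12 h and 1122 reads at 48 h. Its 36.2 FPKM were at least 379-fold higher than the 0.0954 FPKM that 3 reads would have given at 12 h. Both genes were thus at or near the limit of detection at 12 h and on either side of the list's median level of 45.4 FPKM at 48 h.

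IFI6 (ENSG00000126709, chromosome 1, 27666064 to 27672192), a mitochondrial and endoplasmic reticulum protein, was the most abundant member at 48 h. It had 49.9, 66.5 and 1838 FPKM, a 27.6-fold rise from 12 h, against 27.7 and 44.8 FPKM at 12 h and 48 h of the empty vector. At 12 h the highest member stood at 72.6 FPKM. ISG15, the ubiquitin-like modifier, went from 24.4 to 856 FPKM, and USP18, the protease that removes it, from 3.03 to 67.5 FPKM. At 48 h of the empty vector these were at 31.4 and 3.71 FPKM. Genes of the 2′-5′ oligoadenylate synthetase family rose together. OAS3 went from 2.61 to 102 FPKM (log2 5.23, 5.13 to 5.45), OASL from 0.461 to 34.0 FPKM (5.93, 5.64 to 6.84) and OAS1 from 0.669 to 28.5 FPKM (5.22, 5.01 to 5.84). OAS1 was the member of the list that had already passed 2-fold at 12 h, from 0.256 FPKM at 0 h.

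The sensors and factors of the pathway rose as well. DDX58, which encodes the viral RNA sensor RIG-I, went from 3.09 to 68.4 FPKM and IFIH1, which encodes the sensor MDA5, had a log2 change of 2.61. IRF7, the transcription factor that drives interferon genes, stood at 4.78, 4.42 and 96.6 FPKM and rose 21.4-fold after 12 h, with 5.92 and 6.29 FPKM at 12 h and 48 h of the empty vector. STAT2 rose from 19.6 to 96.7 FPKM and IRF9, its DNA-binding partner, by 2.55 on the log2 scale. The smallest rise of the list was in MX2, from 15.6 to 45.4 FPKM (log2 1.54), which with the empty vector had 19.1 and 14.0 FPKM. Exons of another gene on the same strand cover 43.2% of DDX58 and 23.1% of IFI6, and reads of such stretches cannot be assigned to either gene from these values.

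**Figure D2:**
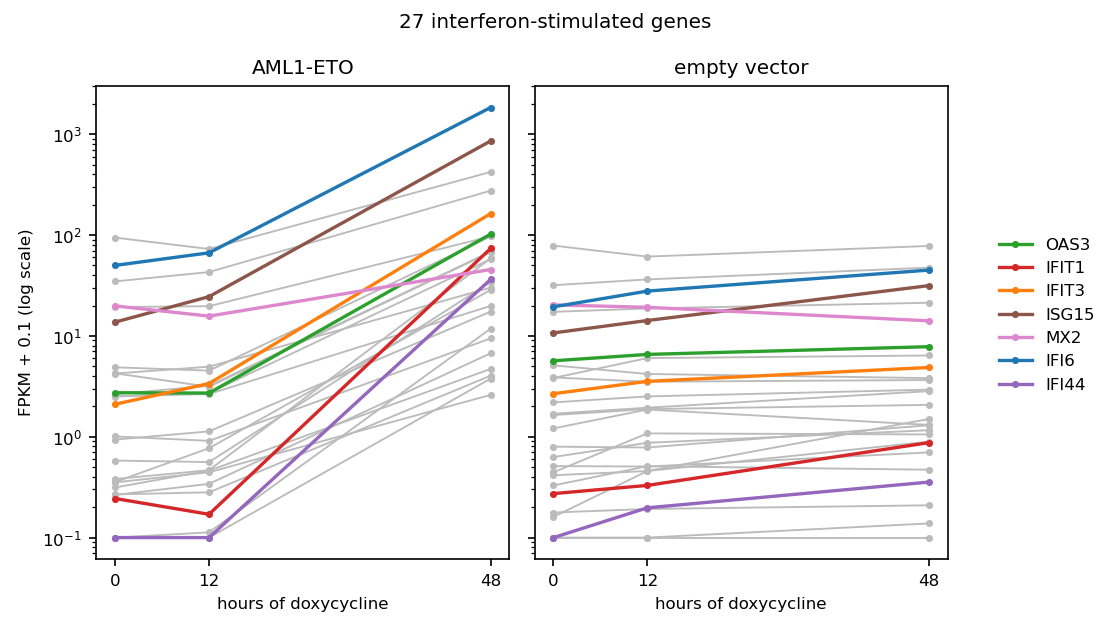
FPKM + 0.1 (y axis, log scale) at 0, 12 and 48 h of doxycycline (x axis) for the 27 interferon-stimulated genes tested, 1 line per gene and 1 library per point, in the AML1-ETO line (left) and the empty vector line (right). The lines on the left run nearly level to 12 h and then climb, IFI6 to 1838 FPKM. On the right IFIT1, IFIT2 and ISG15 pass 2-fold after 12 h, to 0.774, 1.40 and 31.4 FPKM, and the other 24 genes do not.

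Related immune genes were read from further lists. CXCL10, the interferon-induced chemokine that attracts T cells, had 0, 0.331 (6 reads) and 33.3 FPKM, and was at 0 and 0.0553 FPKM at 12 h and 48 h of the empty vector. Of the 12 inflammatory cytokines and chemokines tested, 6 rose (against 8.45% of all genes) and 1 fell (8.33%, against 9.88%). Of the 12 with at least 1 FPKM at 0 h, 4 rose and 1 fell. CXCL8, the neutrophil chemokine, went from 20.7 to 113 FPKM, but it also rose with the empty vector from 1.27 to 5.34 FPKM, and with that change subtracted its log2 change was 0.46, short of 2-fold. TNFSF13B, the B-cell survival factor, went from 57.5 to 150.4 FPKM and CCL5 from 51.6 to 122 FPKM. CCL23 went the other way, with 1.38, 7.07 and 0.443 FPKM. In the MHC class I list 4 of 15 genes rose (26.7%, against 8.45% of all genes) and none fell. They were the peptide transporter TAP1 (11.4 to 46.4 FPKM), the class I activator NLRC5 (2.18 to 7.23 FPKM), HLA-E (105 to 233 FPKM) and the light chain B2M (419 to 901 FPKM). HLA-E went from 87.3 to 119 FPKM and B2M from 279 to 433 FPKM with the empty vector, and with these changes subtracted the log2 changes were 0.71 and 0.47, so that neither passed 2-fold. HLA genes share sequence, and reads that match several of them could be counted in more than a single way. None of the 4 tested genes of MHC class II passed 2-fold.

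TRANK1, a large protein of little known function, was in the same range as these genes, at 0.525, 0.713 and 28.9 FPKM (log2 5.16, 5.09 to 5.60), with 0.874 and 0.886 FPKM at 12 h and 48 h of the empty vector. SAMD9L, a growth-restraining antiviral protein, went from 2.62 to 57.5 FPKM. In all, 25 genes were under 0.5 FPKM at 12 h and at 5 FPKM or more at 48 h, against 6 with the empty vector. Of the 25, 14 are annotated as protein coding, among them IFIT1, IFIT2, IFIT5, IFI44, IFI44L, IFITM1, OASL, CXCL10, LGALS3BP and EBI3. EBI3, the shared subunit of the cytokines IL-27 and IL-35, had 0 reads at 12 h and 119 reads (6.23 FPKM) at 48 h. Others of the 25 are short RNAs with 5 to 12 reads at 48 h.

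Azurophil granule genes had the lowest median change of the lists. Of the 12 list members tested, 9 fell, against 9.88% of all genes, none rose, and the median log2 change was -4.25, against -0.57 with the empty vector. All 9 had been within 2-fold from 0 h to 12 h. The summed level of the list was 5823, 5224 and 481 FPKM in time order. The empty vector line had 3521, 3657 and 2150.3 FPKM, so it also declined at the last step, with 3 of the 12 genes past 2-fold. In bulk RNA fewer cells of a type and less RNA per cell cannot be told apart.

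RNASE3 (ENSG00000169397, chromosome 14, 20891385 to 20892348), the eosinophil cationic protein, had 443, 371 and 4.65 FPKM, a 78.1-fold fall after 12 h with a log2 interval of -6.74 to -5.92. RNASE2, its close relative, had 309, 323 and 5.20 FPKM. These paralogs have similar sequences, and how reads matching both were counted could move values between them. With the empty vector RNASE3 went from 143 to 94.5 FPKM and RNASE2 from 189 to 143 FPKM. MS4A3, a membrane protein of granulocyte and monocyte progenitors, stood at 80.2, 42.0 and 0.442 FPKM, a 77.7-fold fall from 1350 to 14 reads, with 97.4 and 60.1 FPKM with the empty vector. Both lines thus had less of these transcripts at 48 h than at 12 h, and the AML1-ETO line fell further.

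Among the serine proteases of the granule, PRTN3 (proteinase 3) had 902, 639.8 and 20.7 FPKM, a late log2 change of -4.95 (-5.11 to -4.80). This gene also fell with the empty vector, from 291 to 81.0 FPKM. CTSG (cathepsin G) went from 63.4 to 2.59 FPKM, AZU1 (azurocidin, which has lost its protease activity) from 184 to 11.8 FPKM and ELANE (neutrophil elastase) from 544 to 66.7 FPKM. LYZ, the lysozyme gene, was the second most abundant member at 12 h and went from 1346 to 45.1 FPKM, with 775 and 380.2 FPKM at the same times of the empty vector. SRGN, the proteoglycan that packs granule proteins, went from 1581 to 214 FPKM. The 3 tested members that did not fall were PRSS57, SERPINB1 and CTSC, at 5.05 and 5.25 FPKM, 92.4 and 82.2 FPKM, and 32.3 and 22.4 FPKM. MPO, a defining marker of the granule, was at most 0.559 FPKM in the AML1-ETO line.

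**Figure D3:**
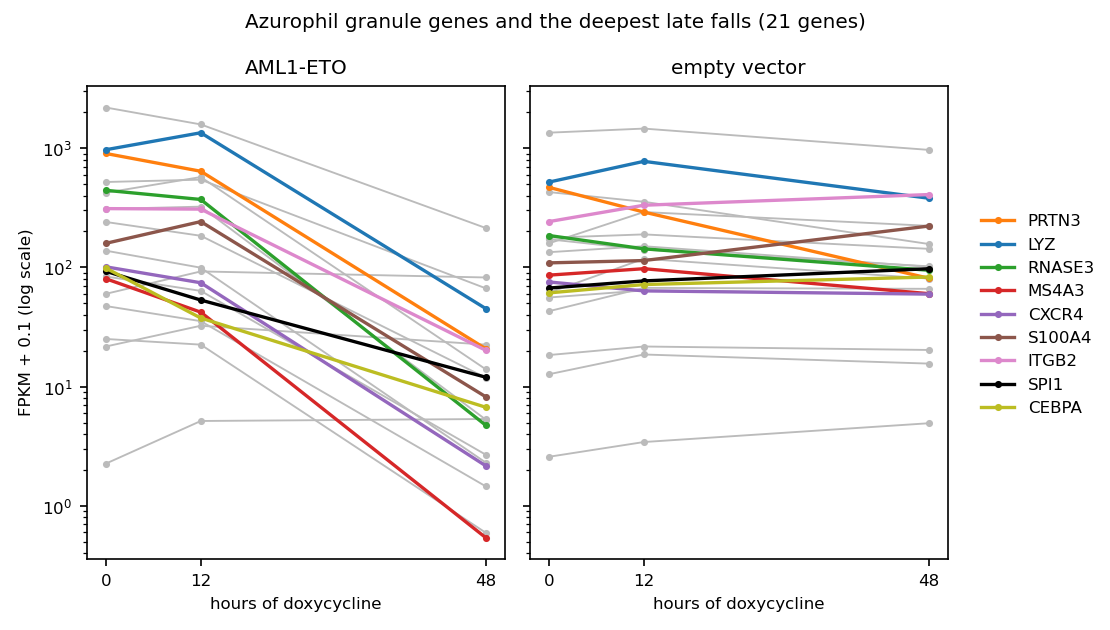
FPKM + 0.1 (y axis, log scale) at 0, 12 and 48 h of doxycycline (x axis) for 21 genes in the AML1-ETO line (left) and the empty vector line (right), 1 library per point. The genes are the 12 azurophil granule genes tested, ITGB2, SPI1, CEBPA and 10 genes with large late falls. These 10 had the largest falls among genes with a mean of at least 10 FPKM that were within 2-fold before 12 h and with the empty vector. The named lines on the left drop after 12 h, to 0.442 FPKM for MS4A3 and 45.1 FPKM for LYZ, and the named lines on the right end at 59.6 FPKM (CXCR4) or higher.

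The identity of the cells was checked with marker lists. Of 12 monocyte and macrophage markers 8 had a mean of at least 1 FPKM in the AML1-ETO libraries, and CD14 and CD68 were listed at 0. Their summed level was 1326, 1713 and 331 FPKM at 0, 12 and 48 h, of which LYZ made up most, and 1128 and 762 FPKM at 12 h and 48 h of the empty vector. For 12 granulocyte markers, 7 of which had at least 1 FPKM and of which LTF and FCGR3B were at 0, the sums were 1797, 1494 and 181 FPKM, and 953 and 466 FPKM with the empty vector. T and NK cell markers had sums of 57.4 and 10.2 FPKM at 12 h and 48 h with CD3D, CD3E and CD3G at 0, and nearly all of this was NKG7. B cell markers (10.2 and 11.1 FPKM, with MS4A1 at 0), erythroid markers (3.50 and 1.73 FPKM, with HBB at 0) and megakaryocyte markers (2.53 and 3.11 FPKM, with PF4 at 0) were low at both times. Mast cell and basophil markers had 227 and 78.2 FPKM, with CPA3 and HDC at 0, and nearly all of this was TPSAB1. Between 12 h and 48 h of the empty vector the last of these sums went from 239.8 to 367 FPKM. Their part in the falls of granule and surface genes was not tested.

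Outside the granule list, the deepest falls among genes with a mean of at least 10 FPKM that were within 2-fold before 12 h and with the empty vector included CST7, CHI3L1, VIT, CXCR4, S100A4 and MYO1G. CST7, an inhibitor of granule proteases, had 138, 99.3 and 2.21 FPKM. CHI3L1, a secreted chitinase-like protein, had 423, 572 and 13.9 FPKM, with 291 and 223 FPKM at 12 h and 48 h of the empty vector. CXCR4 (ENSG00000121966, chromosome 2, 136114349 to 136118149), the CXCL12 receptor that holds leukocytes in the bone marrow, had 101, 74.2 and 2.07 FPKM, a 34.3-fold fall, with 63.4 and 59.6 FPKM with the empty vector. S100A4, a calcium-binding protein, had 159, 242 and 8.13 FPKM, while with the empty vector it went from 114 to 222 FPKM. VIT and MYO1G, a leukocyte myosin, reached 0.496 and 1.36 FPKM from 22.4 and 35.3 FPKM. An empty vector change of less than 2-fold was a condition for choosing these 6 genes and is therefore not a result. In all, 14 genes were at 10 FPKM or more at 12 h and under 1 FPKM at 48 h, against 0 with the empty vector. Besides MS4A3, VIT and LAT2 they included LSP1, a leukocyte actin-binding protein (16.5 to 0.170 FPKM), the lectin SIGLEC6 (11.9 to 0.399 FPKM), the exchange factor RASGRP2 (10.7 to 0.486 FPKM) and LST1 (14.5 to 0.720 FPKM).

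In the list of leukocyte integrins and homing molecules 6 of 17 genes fell (35.3%, against 9.88% of all genes) and 1 rose (5.88%, against 8.45%). ITGB2, the shared β chain of the leukocyte integrins, had 311, 308 and 20.1 FPKM, while with the empty vector it had 332 and 408 FPKM at the later times. Its partner ITGAL went from 4.86 to 0.267 FPKM, and another partner, ITGAX, rose from 2.34 to 6.86 FPKM. SELPLG, the P-selectin ligand, had already dropped from 25.2 to 6.81 FPKM by 12 h and then to 0.0527 FPKM, which is 2 reads against 262. Because of these 2 reads its interval was wide, from -10.07 to -5.15. ITGA4 went from 51.8 to 19.0 FPKM and ICAM3 from 5.04 to 2.26 FPKM. Of the 5 tested subunits of the phagocyte NADPH oxidase, only the GTPase RAC2 passed 2-fold, with 68.7, 55.9 and 3.02 FPKM against 82.5 and 88.1 FPKM with the empty vector.

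Among adaptors and kinases of immunoreceptor signalling 8 of 19 fell (42.1%, against 9.88% of all genes) and none rose, with a list median of -0.68 against -0.07 with the empty vector. LAT2, the adaptor that links Fc receptors to their kinases, had 35.8, 12.5 and 0.231 FPKM, and 36.0 and 34.3 FPKM at 12 h and 48 h of the empty vector. FGR, a Src-family kinase, went from 19.3 to 1.07 FPKM while it went from 34.9 to 53.5 FPKM with the empty vector. TYROBP, the adaptor DAP12, went from 26.1 to 1.59 FPKM, SLA from 5.16 to 0.167 FPKM, the exchange factor VAV1 from 14.1 to 3.03 FPKM and the phosphatase PTPN6 from 27.1 to 8.69 FPKM. FCER1G, the Fc receptor γ chain, fell from 41.3 to 16.8 FPKM and with the empty vector rose from 54.1 to 133 FPKM. Of 12 tested monocyte surface and Fc receptors 3 fell (against 9.88% of all genes) and 1 rose (8.33%, against 8.45%). The gene that rose, the scavenger receptor CD36, went from 0.947 to 6.72 FPKM after 0.166 FPKM at 0 h. TNFRSF1B, a TNF receptor, went from 29.3 to 5.91 FPKM. Of 14 cytokine and growth factor receptors 4 fell (28.6%, against 9.88% of all genes), among them FLT3 (5.83 to 0.743 FPKM) and IL6R (28.2 to 2.27 FPKM). IL3RA was the 1 that rose (7.14%, against 8.45% of all genes), from 2.20 to 6.23 FPKM. With the empty vector change subtracted its log2 change was 0.74, short of 2-fold.

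The myeloid transcription factors changed in both directions, with 4 falls and 3 rises among 20 genes, against 9.88% and 8.45% of all genes. CEBPA (ENSG00000245848, chromosome 19, 33299934 to 33302534), the factor of granulocyte and monocyte commitment, had 98.5, 37.5 and 6.62 FPKM, so it fell in both steps. Of its exon sequence, 43.9% also lies in exons of the other strand, and the library kit does not mark strand, so reads of such a partner cannot be told from its own. SPI1 (ENSG00000066336, chromosome 11, 47354860 to 47378547), which encodes PU.1, had 92.6, 53.1 and 11.9 FPKM, with a log2 change of -2.15 (-2.33 to -2.00) after 12 h. Over the same hours SPI1 went from 76.9 to 97.3 FPKM and CEBPA from 71.7 to 82.9 FPKM with the empty vector. IRF8, a factor of monocyte development, went from 52.6 to 9.82 FPKM, with 71.7 and 51.1 FPKM with the empty vector. NFE2 went from 9.57 FPKM at 0 h to 2.14 and 0.0556 FPKM (2 reads). The rises were in EGR2 (0.141 to 1.94 FPKM), KLF4 (4.60 to 22.3 FPKM) and BCL6 (5.78 to 15.7 FPKM). CEBPB, which encodes C/EBPβ, had 30.4, 14.9 and 19.8 FPKM, a late log2 change of 0.41 after one of -1.03.

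Of the stem and progenitor factors 5 of 16 fell (31.2%, against 9.88% of all genes) and none rose. MYC went from 49.9 to 13.8 FPKM (log2 -1.85) after 35.1 FPKM at 0 h, and LYL1, a helix-loop-helix partner of AML1-ETO, from 44.2 to 18.5 FPKM. HHEX went from 16.4 to 6.12 FPKM and SOX4 from 8.01 to 3.19 FPKM. In the ETO family, CBFA2T3, which encodes ETO2, had 5.26, 2.28 and 0.220 FPKM. Of the 15 genes tested in this list 2 fell (13.3%, against 9.88% of all genes) and none rose, and EP300, which acetylates AML1-ETO, had 17.4 and 29.9 FPKM. RHOU, a GTPase gene examined in the study, had 29.3, 20.8 and 6.68 FPKM, with 33.0 and 44.3 FPKM at 12 h and 48 h of the empty vector. Of 11 tested genes known as markers of t(8;21) leukaemia 7 fell (63.6%, against 9.88% of all genes) and none rose. Besides LAT2 these included TSPAN32 (3.67 to 0.433 FPKM), RASSF2 (26.3 to 7.67 FPKM), UBASH3B (25.1 to 8.32 FPKM) and POU4F1, a marker that is high in patients' cells and stood at 7.24, 7.89 and 3.78 FPKM here.

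Most DNA replication genes fell. Of 35 genes tested 28 fell (80.0%, against 9.88% of all genes), every one had a lower value at 48 h, and the median was -1.45 with a range of -2.43 to -0.42. All 28 had been within 2-fold from 0 h to 12 h. With the empty vector, where 2 genes passed 2-fold, the median was -0.57, and 34 of the 35 genes had a lower value of the change with AML1-ETO than with the empty vector. MCM5, a subunit of the replicative helicase (ENSG00000100297, chromosome 22, 35400140 to 35455031), had 26.6, 28.1 and 5.14 FPKM, and 46.7 and 20.9 FPKM at 12 h and 48 h of the empty vector. MCM4 went from 69.9 to 15.2 FPKM and MCM2 from 45.5 to 12.2 FPKM. Empty vector cells also had less of both, as MCM4 went from 118 to 62.6 FPKM and MCM2 from 80.2 to 36.0 FPKM, the latter past 2-fold. Subtracting these changes left log2 changes of -1.27 for MCM4 and -0.73 for MCM2, the second short of 2-fold, and a list median of -0.93. PCNA, the sliding clamp of the polymerases, went from 139 to 41.8 FPKM with AML1-ETO and from 198 to 157 FPKM with the empty vector.

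Of 32 mitosis genes 8 fell (against 9.88% of all genes), and all 32 lay below 0 with AML1-ETO, with a median of -0.88, against 0.10 with the empty vector. CENPF, a kinetochore protein, went from 35.3 to 10.3 FPKM, PTTG1 (securin) from 31.9 to 10.9 FPKM, CCNA2 (cyclin A2) from 56.9 to 24.5 FPKM and BIRC5 (survivin) from 16.7 to 7.10 FPKM. At the same step BIRC5 went from 14.7 to 21.2 FPKM with the empty vector. Among G1 cyclins, E2F factors and CDK inhibitors 6 of 25 fell (24.0%) and 1 rose, with a median of -0.20. E2F1, which drives S-phase genes, went from 15.8 to 4.81 FPKM, E2F2 from 6.73 to 1.66 FPKM, the phosphatase CDC25A from 22.6 to 5.82 FPKM and CCNE1 (cyclin E1) from 2.97 to 0.961 FPKM. Of 9 tested histone genes, with a median of 1.56 FPKM at 12 h, 7 rose (77.8%, against 8.45% of all genes) and 2 fell (22.2%, against 9.88%). HIST1H2AC went from 1.55 to 15.3 FPKM, HIST1H2BD from 1.56 to 12.1 FPKM and HIST2H2BE from 1.68 to 11.4 FPKM, and each was within 2-fold with the empty vector. Histone genes have near-identical copies, and how reads between the copies were counted could shift these values. How well the libraries captured histone messengers is not known, so the rises were not set against the falls of replication genes.

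The transcripts of the mitochondrial genome split by kind. All 13 messenger RNAs fell after 12 h with AML1-ETO (86.7% of the list's 15 genes, against 9.88% of all genes) and both ribosomal RNAs rose. The summed FPKM of the 13 messengers was 47429.9 at 0 h, 30146 at 12 h and 9389 at 48 h, against 57326, 35729 and 35378 with the empty vector. The sum of both ribosomal RNAs was 7819, 4102 and 11018 FPKM with AML1-ETO and 3561, 4105 and 3262 FPKM with the empty vector. The ratio of ribosomal to messenger FPKM thus went from 0.136 at 12 h to 1.17 at 48 h with AML1-ETO and from 0.115 to 0.0922 with the empty vector. Within the ETO2-GLIS2 line it went from 0.142 to 0.389, and the difference between lines was not tested. How well the libraries captured ribosomal RNA of the mitochondria is not known.

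MT-ND3, a subunit of respiratory complex I, went from 1133 to 217 FPKM (log2 -2.39, -2.48 to -2.29), while with the empty vector it went from 843 to 1382 FPKM. MT-ND2 went from 2654 to 622 FPKM, MT-CO3, a subunit of cytochrome oxidase, from 6401 to 1607 FPKM and MT-ATP6, of the ATP synthase, from 1670.2 to 431 FPKM. MT-CO1 had fallen at 12 h, from 11449 to 4149 FPKM, and stood at 1821 FPKM at 48 h. MT-RNR2, the 16S ribosomal RNA, had 6703, 3083 and 8294 FPKM and MT-RNR1, the 12S ribosomal RNA, had 1116, 1019 and 2724 FPKM. Genes of the mitochondrial genome took 20.9%, 13.1% and 8.82% of the summed FPKM at the 3 times of AML1-ETO and 23.5%, 16.3% and 15.5% with the empty vector. Both strands of this genome are transcribed over their whole length, and nuclear copies can share its reads, so single values depend on how these were counted. The nuclear subunits of the respiratory chain stayed within 2-fold in all 32 genes tested, with a median of -0.20.

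**Figure D4:**
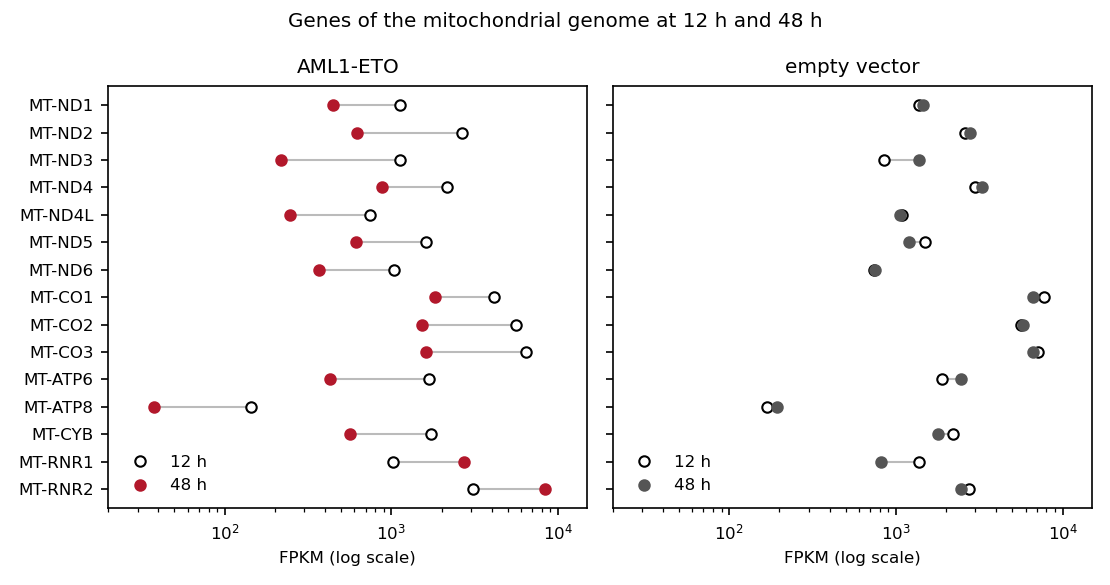
FPKM (x axis, log scale) of the 13 messenger and 2 ribosomal RNA genes of the mitochondrial genome (y axis) at 12 h (open circles) and 48 h (filled circles) in the AML1-ETO line (left) and the empty vector line (right), 1 library per point. On the left the filled circles lie left of the open ones for the messengers and right of them for MT-RNR1 and MT-RNR2, which reaches 8294 FPKM.

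Genes of protein synthesis and stress were read in several lists. Ribosome biogenesis factors had a median of -0.68, 7 of 33 fell (21.2%, against 9.88% of all genes) and all 33 lay below 0, while with the empty vector the median was -0.07. RRS1 went from 46.1 to 16.3 FPKM and MRTO4 from 39.6 to 17.2 FPKM. None of the 76 ribosomal protein genes passed 2-fold. In the ATF4 stress list 10 of 24 genes rose (41.7%, against 8.45% of all genes) and none fell, and 5 of the 10 had been within 2-fold before. The median was 0.81 against 0.33 with the empty vector, and as low as 0.38 under the alternatives run. The summed level of the list was 519, 836 and 1276 FPKM at 0, 12 and 48 h of AML1-ETO. With the empty vector it was higher at each time, at 680.2, 1164 and 1399 FPKM. ATF5, a stress transcription factor, had 2.44, 6.81 and 43.7 FPKM, SLC7A11, the cystine transporter, had 2.72, 12.6 and 68.9 FPKM, and SESN2 had 8.88, 16.6 and 50.2 FPKM. With the empty vector these genes went from 13.3 to 19.5 FPKM, from 6.67 to 13.1 FPKM and from 38.3 to 47.0 FPKM between 12 h and 48 h, so SESN2 ended at a similar level in both lines. The lists of ER chaperones (3 rises and 1 fall in 22), tRNA synthetases (1 rise in 20) and apoptosis regulators (1 rise and 1 fall in 21) had medians of 0.09, 0.06 and 0.12. The shares that rose were 13.6%, 5.00% and 4.76%, against 8.45% of all genes. The shares that fell were 4.55%, 0% and 4.76%, against 9.88%. CASP8 was the apoptosis gene that rose, from 5.39 to 12.7 FPKM, and BID the gene that fell, from 13.9 to 5.10 FPKM.

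Genes of cholesterol and fatty acid synthesis had medians below 0 in both lines. With AML1-ETO 8 of 28 fell after 12 h (28.6%, against 9.88% of all genes) and the median was -0.68, and with the empty vector 9 fell and the median was -0.75. INSIG1, the sterol-responsive brake on this pathway, had 292, 40.3 and 5.53 FPKM with AML1-ETO and 380.4, 41.0 and 10.7 FPKM with the empty vector. Its late log2 change with the empty vector subtracted was -0.91, short of 2-fold. FADS1 went from 16.8 to 3.51 FPKM against 24.1 to 13.9 FPKM. With the empty vector change subtracted, the median of this list was 0.16. In the glycolysis list 2 of 23 genes fell (8.70%, against 9.88% of all genes) and 1 rose (4.35%, against 8.45%). PKM, pyruvate kinase, went from 147 to 25.9 FPKM, the lactate transporter SLC16A3 from 33.7 to 6.57 FPKM, and PFKFB4 from 2.83 to 6.93 FPKM.

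Of 22 lysosomal genes 5 fell (22.7%, against 9.88% of all genes), and CTSD (cathepsin D, 56.3 to 17.8 FPKM) and CD63 (95.5 to 34.7 FPKM) were among them. Of 13 S100 proteins and annexins 5 fell (38.5%, against 9.88% of all genes), such as S100A6 (130.0 to 24.6 FPKM), and 2 rose (15.4%, against 8.45%), such as ANXA1 (11.9 to 49.7 FPKM). In the actin list 4 of 26 fell (15.4%, against 9.88% of all genes), with FLNA (127 to 11.1 FPKM) and CORO1A (55.7 to 10.0 FPKM) the deepest. In the same list 2 rose (7.69%, against 8.45% of all genes). Of these 2, CTTN, cortactin, had 0.929, 5.93 and 30.5 FPKM and 0.913 and 0.673 FPKM with the empty vector. Of 16 immediate early factors 3 rose (18.8%, against 8.45% of all genes) and 1 fell (6.25%, against 9.88%). Of 13 Notch genes 3 rose (23.1%, against 8.45% of all genes), with ADAM17, the surface protease, at 8.95 and 26.1 FPKM.

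Other genes continued a change begun before 12 h. CYP1A1, a target of the aryl hydrocarbon receptor, had 0.305, 12.2 and 91.5 FPKM with AML1-ETO and 3.36 and 3.75 FPKM at 12 h and 48 h of the empty vector. PLIN2, the coat protein of lipid droplets, had 10.2, 27.0 and 180.3 FPKM, and HAVCR2, the surface receptor TIM-3, had 0.300, 1.01 and 19.3 FPKM. Both stayed under 17 FPKM with the empty vector at 48 h (16.6 and 0.0607 FPKM). Among continuing falls, IL6R had 78.2, 28.2 and 2.27 FPKM, HS3ST2, a heparan sulphate sulphotransferase, 70.9, 29.4 and 3.01 FPKM, and ZFP36L2, an RNA-destabilising protein, 369, 71.5 and 12.2 FPKM. With the empty vector HS3ST2 also fell past 2-fold after 12 h, from 33.3 to 15.6 FPKM. Subtracting that change moved its log2 change from -3.25 to -2.16. Over the same hours IL6R went from 78.9 to 73.2 FPKM and ZFP36L2 from 242 to 205 FPKM with the empty vector.

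A few abundant genes turned back after 12 h. RETN (resistin), a secreted myeloid protein, had 48.5, 109 and 1.15 FPKM, the last from 9 reads, an 87.5-fold fall, while with the empty vector it had 37.6, 57.4 and 130.4 FPKM. SERPINB2, an inhibitor of plasminogen activation, had 38.3, 88.3 and 41.9 FPKM, and RRP9, a factor of ribosomal RNA processing, had 23.9, 50.9 and 24.2 FPKM. Both ended near their 0 h level. In the other direction, JUND, an AP-1 factor, had 34.7, 15.9 and 33.1 FPKM and the nuclear RNA MALAT1 went from 7.89 to 18.9 FPKM after a fall before 12 h, or by 0.90 on the log2 scale, short of 2-fold, with the empty vector subtracted. Exons on the opposite strand cover 83.7% of MALAT1. The 12 h library enters both steps of such a course, and a value there that was too high or too low would give the same shape.

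The medians of 4 lists in the ETO2-GLIS2 line, picked after their values were seen, are given beside those of AML1-ETO. In the ETO2-GLIS2 line interferon-stimulated genes had a median log2 change of 0.66 between 12 h and 48 h, azurophil granule genes -1.49, DNA replication genes -0.93 and the ATF4 stress list 0.77. With AML1-ETO these medians were 4.42, -4.25, -1.45 and 0.81, and the differences between the lines, each with 1 library per time, were not tested. Other lists went further with ETO2-GLIS2, such as cholesterol and fatty acid synthesis, with a median of -0.86 against -0.68.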

How the data were processed

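RNA of 9 U937 cultures, 1 per line and time, was made into libraries with the TruSeq RNA Sample Preparation Kit, which does not mark strand. The study's methods do not state how RNA was selected for the libraries. The FPKM values that the authors deposited were made from reads aligned to hg38 with HISAT2 2.0.5, handled with SAMtools 1.7 and counted per gene with HTSeq 0.9.1, as the submitters' processing notes and the study's methods give it. The annotation version is not given in the sources used here.

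FPKM values were compared as log2(48 h + 0.1) minus log2(12 h + 0.1) for genes with a mean of at least 1 FPKM. With 1 library per condition no test was run, and a change past 2-fold was called. Whole reads could be recovered from the steps of the values for 23780 of 23889 genes above 0 in at least 3 libraries (99.5%), and exact Clopper-Pearson intervals were taken from these reads, so that they carry no pseudocount and can lie beyond the printed change of a low gene. A fold against 0 reads used a floor of 3 reads per library. On simulated libraries of 23780 genes, 199 of 200 genes changed 4-fold were called in the right direction. Of the unchanged genes, 97 were called higher and 96 lower. How often a change past 2-fold is called between separate cultures of the same condition was not tested.

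The comparison, the 33 gene lists and the tests were chosen with earlier results of these data known. Genes were named by rule: those of the construct and the study, the 10 largest rises and falls that were level before 12 h and with the empty vector at a mean of at least 10 FPKM, the 5 largest continuing and turning changes in each direction, and up to 4 members per list with the largest change. Further list members and genes named beside a count were chosen after their values were seen, as were the interferon response motif and the filter on the 0 h library. Names starting with SNOR, SCARNA, RNU, RN7, RNY, MIR or MT-, clone names and pseudogenes were left out of the ranked names. Some members of the lists are not reported here by name.

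Gene types and exon overlaps came from a GENCODE annotation that matched 58555 of 60623 identifiers (96.6%). This annotation was lifted to an earlier genome build than the hg38 of the alignments, so the printed exon overlaps can differ from those on hg38. Coordinates and promoters came from RefSeq on GRCh38.p14, with a promoter for 8272 of the 12372 genes tested. Python 3.11.15, numpy 2.4.6, pandas 2.3.3, scipy 1.17.1 and matplotlib 3.10.9 were used.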

Additional observations from a re-analysis of the deposited data

Results flagged for a closer look

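For 11 named genes the change from 12 h to 48 h went 1 way with AML1-ETO and the other way, by at least 1.5-fold, with the empty vector. Each value below is the AML1-ETO log2 change minus the empty vector log2 change, and with 1 library per condition none of the differences was tested.

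RETN, the secreted protein resistin, had the largest difference, -7.64, from -6.45 with AML1-ETO and 1.18 with the empty vector. The calcium-binding proteins S100A4 and S100A6 differed by -5.83 and -3.49, and the Src-family kinase FGR by -4.67. The Fc receptor γ chain FCER1G differed by -2.59, with changes of -1.29 and 1.30. Among lysosomal genes, the protease CTSD differed by -2.50 and CD63 by -2.05. MT-ND3 of the mitochondrial genome differed by -3.10, the endoplasmic reticulum protein SDF2L1 by -2.12 and the protease inhibitor SERPINB2 by -1.67. PFKFB4, an enzyme that sets the rate of glycolysis, was the gene of the 11 that was higher with AML1-ETO, by 2.03, from 1.26 and -0.77.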

How the results depend on the processing

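No paired analysis was possible because each condition has 1 library and the labels carry no replicate numbers. The counts of rises and falls depended on the filter and the threshold, for AML1-ETO and the empty vector alike. With a mean of at least 5 FPKM, AML1-ETO had 377 rises and 580 falls, of which 329 and 528 were level before 12 h, and the empty vector had 47 and 53. Without a filter these were 3907 and 3222, 2962 and 1849, and 1926 and 2336. At 1.5-fold they were 2294 and 2517, 1507 and 1745, and 800 and 845, and at 4-fold 302 and 304, 250 and 264, and 63 and 91. With the counting interval wholly past 2-fold they were 474 and 688, 398 and 621, and 24 and 50. A pseudocount of 1 FPKM left 692 AML1-ETO rises and 132 rises and 165 falls of the empty vector. The filter on the 0 h library, chosen after seeing the data, left 638 AML1-ETO rises, 496 of them level before 12 h.

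The median of all genes, 0.02, was 0.00 after rescaling by the median ratio or subtracting the empty vector, 0.05 with totals that leave out the 100 highest genes, and -0.03 with the 0 h filter. None of the 133 named genes past 2-fold changed sign under the alternatives run. Most of them were named for a large change, so a kept sign is a weak check. In size, 137 of the 160 named genes were marked as moved under at least 1 alternative. INSIG1, at -2.85, reached -0.91, and CXCL8, at 2.45, reached 0.46. Of the 33 list medians 7 changed sign. These were ER chaperones, S100 proteins and annexins, apoptosis regulators, cholesterol synthesis, cytokine receptors, ribosomal proteins and immediate early factors. The medians of interferon-stimulated, azurophil granule and DNA replication genes were not among them. Values of scarce genes were limited by depth, and spread between cultures was not measured.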
